A study of Mus musculus with 12 samples.

Results

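The genes described here are 35 mouse genes for glutamate receptors and for the scaffold proteins that hold them at the synapse. They were chosen by name in the deposited FPKM table, where they take 36 of 51912 rows, because Dlg2 has 2. They comprise 4 AMPA, 6 NMDA, 5 kainate, 1 delta and 6 metabotropic receptor genes, and 3 Shank, 4 Dlg, 4 Dlgap and 2 Homer scaffold genes. The study sequenced RNA from the striatum of R6/2 mice, a model of Huntington's disease whose transgene holds exon 1 of human HTT with a long CAG repeat, and of wild-type (WT) mice. It asked how lowering TRAX, the protein encoded by Tsnax, changes the striatum in each genotype. The 4 groups are R6/2-T (R6/2 with a virus carrying a short hairpin RNA, shRNA, against TRAX), R6/2-C (R6/2 with a control virus), WT-T (WT with the TRAX shRNA) and WT-C (WT with the control virus), each with 3 libraries. Mice of all 4 groups share a B6CBA background, had an adeno-associated virus injected into both striata at 5 weeks of age and were 10.5 weeks old, so that no group is free of virus or surgery. The labels give neither the promoter that drives the shRNA nor the cells reached. Whether each library came from its own animal is not stated, and the p-values below then reflect variation among libraries, which may be technical.

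Glutamate is the main excitatory transmitter that cortex and thalamus release onto the medium spiny neurons of the striatum. AMPA, NMDA and kainate receptors are ion channels built of several subunits, whereas metabotropic receptors act through G proteins and can sit before or after the synapse or on glia. Below the membrane, Dlg proteins such as PSD-95 bind receptors, Dlgap proteins (also called SAPAPs) link them to Shank proteins, and Homer proteins tie Shank to group I metabotropic receptors.

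Libraries held 32206236 to 57308872 fragments. CPM are counts scaled to the library total after TMM normalization between libraries. Tsnax stood at 40.0 to 47.0 CPM in R6/2-T and 168 to 197 CPM in R6/2-C. It stood at 27.6 to 33.6 CPM in WT-T and 151 to 167 CPM in WT-C, so the shRNA labels hold in every library. Tsnax does not check the genotype labels. The 12 medium spiny neuron markers were present in every library, as the striatal label requires. Their summed level was 1135 to 1210 FPKM in R6/2-T, 1546 to 1749 FPKM in R6/2-C, 2851 to 3352 FPKM in WT-T and 2814 to 3341 FPKM in WT-C. The 8 cortical excitatory neuron markers summed to 8.72 to 24.9 FPKM over all libraries. In bulk tissue, fewer cells of a type and less RNA per cell cannot be told apart. That holds for every genotype difference below.

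FPKM, fragments scaled to gene length and library total, allows levels of different genes to be compared. Means with the lowest and highest of the 12 libraries are given. The most abundant of all was Dlg4, which encodes PSD-95, at 155 FPKM (120.5 to 216). Among NMDA subunits, the obligatory subunit gene Grin1 led with 95.9 FPKM (83.0 to 122), above every value of Grin2b (13.5 FPKM (7.80 to 18.0)). The ranges of neighbours in the remaining order of that class, Grin2b, Grin2a, Grin2c, overlapped, as did those of Grin3a and Grin2d, while Grin2c lay above Grin3a in every library range. Gria1 at 78.7 FPKM (70.1 to 89.4) and Gria2 at 67.3 FPKM (54.9 to 77.2), the main AMPA subunits, overlapped each other and lay above Gria3 (25.8 FPKM (21.5 to 30.3)) and Gria4 (16.95 FPKM (13.4 to 19.5)). Grik5 led the kainate subunits with 52.0 FPKM (41.7 to 64.2), followed by Grik2 with 19.2 FPKM (14.4 to 25.2), whose range overlapped that of Grik3, and by Grik4 and Grik1, whose ranges overlapped. The delta receptor gene Grid1 stood at 14.6 FPKM (12.4 to 16.5). Grm5, the group I receptor of medium spiny neurons, led the metabotropic receptors at 50.8 FPKM (38.3 to 69.1). Grm3, Grm4 and Grm7 followed with ranges in which each overlapped the next, then Grm8 and, lowest of all 35 genes, Grm2 at 0.324 FPKM (0.107 to 0.683). Among scaffolds, Shank3 at 55.8 FPKM (30.8 to 87.1) lay above Shank2 and Shank1, whose ranges overlapped. Dlg2 (86.5 FPKM (60.5 to 116)) and Dlg1 (55.7 FPKM (46.4 to 62.9)) overlapped and Dlg3 was lower (35.02 FPKM (29.0 to 43.3)). Dlgap3 had the widest range of its class, 85.9 FPKM (47.1 to 147), and each Dlgap gene overlapped the next in the order Dlgap3, Dlgap4, Dlgap1, Dlgap2. Homer3 at 5.92 FPKM (4.68 to 7.001) lay above Homer2 at 2.99 FPKM (1.85 to 3.66).

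**Figure D1:**
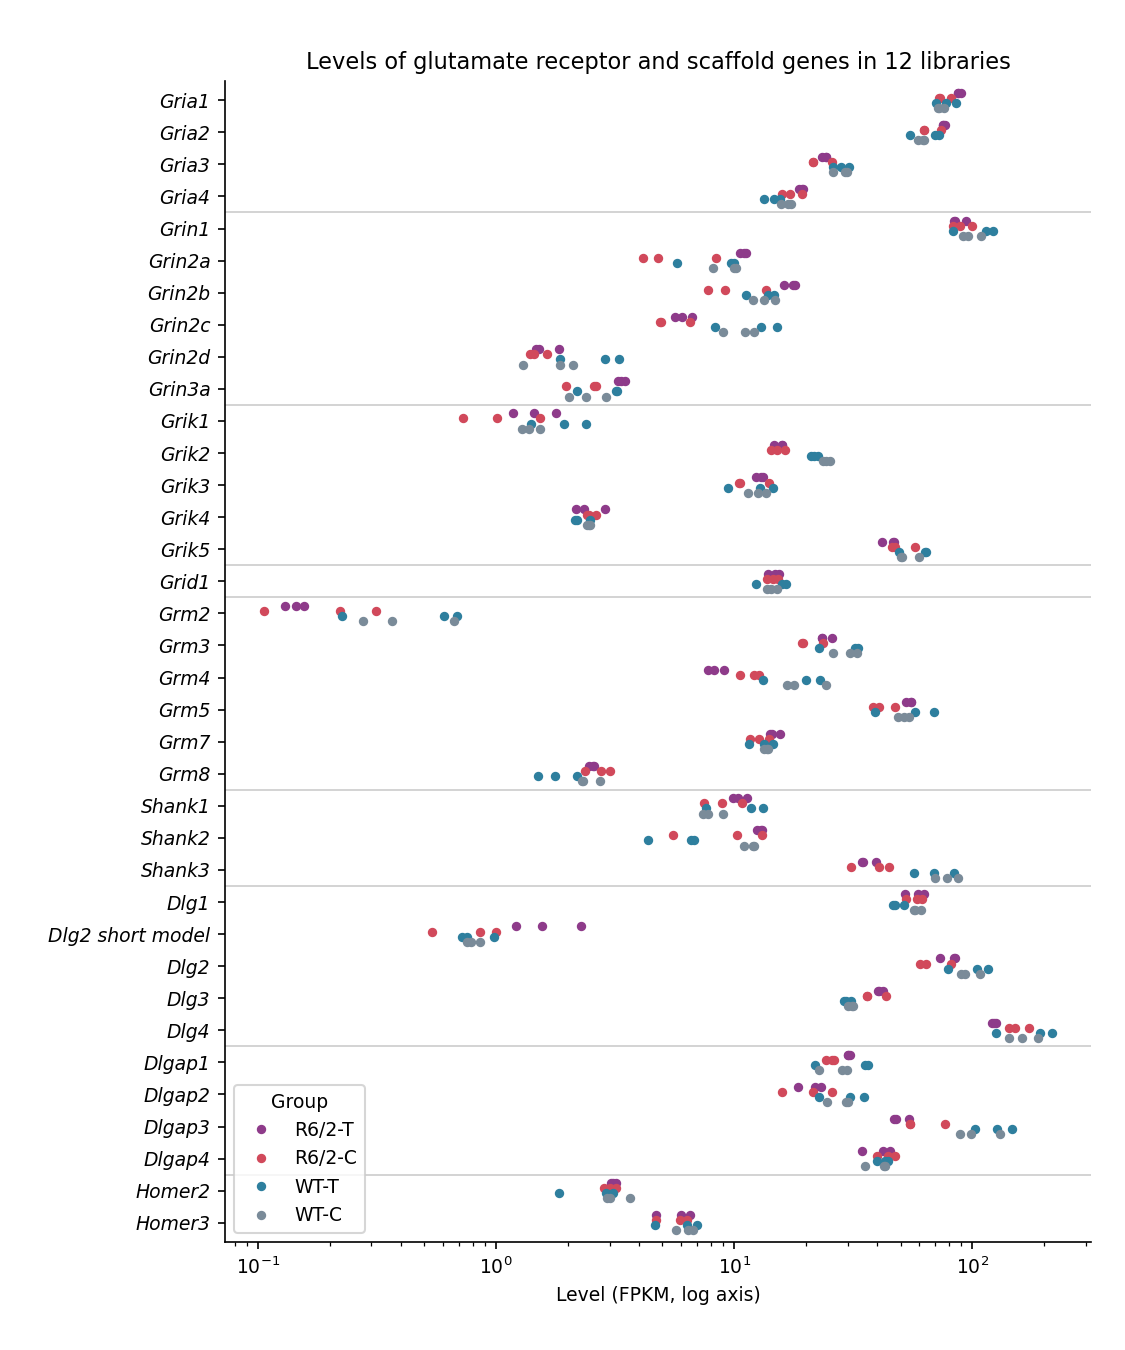
Level in FPKM (log axis) of each of the 36 rows in every library, as 1 point per library, in rows by gene and class, with R6/2-T on top of each row and WT-C at its foot. Dlg4 is the highest with a mean of 155 FPKM and Grm2 the lowest with 0.324 FPKM. The R6/2 points of Shank3, Dlgap3, Grik2, Grin2c, Grm4 and Gria3 lie left of all WT points, and those of Dlg3 lie right of them.

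Genotype differences called among these genes were mostly decreases, centred on Shank3, Dlgap3, Grik2 and Grin2c. Under the control virus, R6/2-C had 4 of the 36 rows lower than WT-C and 0 higher at an adjusted p under 0.05 (edgeR's quasi-likelihood test, Benjamini-Hochberg adjustment across 23453 genes). That is 11.1% of the rows, against 9.09% of all genes, of which 4.22% were called lower and 4.87% higher. The median log2 change was -0.16 over the 36 rows and -0.02 over all genes, with 28 rows negative. Under the TRAX virus, R6/2-T had 7 rows lower and 4 higher than WT-T, or 30.6% of the rows against 22.6% of all genes (11.1% lower, 11.5% higher), with a median of -0.11 against -0.05 for all genes. Over both viruses, 11 rows were lower and 2 higher in R6/2, or 36.1% of the rows against 30.7% of all genes (15.4% lower, 15.3% higher), with a median of -0.12 against -0.04. The shares called in either direction lie near those of all genes, and none is a result about the 36 rows as a group. By direction the calls leaned lower, with 4, 7 and 11 rows lower against 0, 4 and 2 higher. Calls over all genes were split almost evenly. Whether this lean belongs to the rows as a group was not tested. DESeq2 called 7, 13 and 13 rows in the same 3 comparisons (14.9%, 28.6% and 35.6% of all genes), edgeR on recovered fragments 8, 13 and 14 (17.4%, 33.2% and 42.5%) and limma on FPKM 7, 10 and 12 (11.3%, 22.8% and 31.8%). Adding GC content and transcript length as correction moved the median of all genes to 0.13 under the control virus, 0.17 under the TRAX virus and 0.15 over both. The calls were then 5 lower and 2 higher (Shank1 and Dlg3) under the control virus. They were 9 lower and 4 higher under the TRAX virus and 8 lower and 4 higher over both. Medians over the 36 rows were -0.03, 0.04 and 0.00 in that order. Negative rows then numbered 20, 16 and 18, against 28, 21 and 24 without the correction, so the lean in sign depends on it. The corrected test called 17.1%, 25.8% and 38.1% of all genes in these comparisons.

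**Figure D2:**
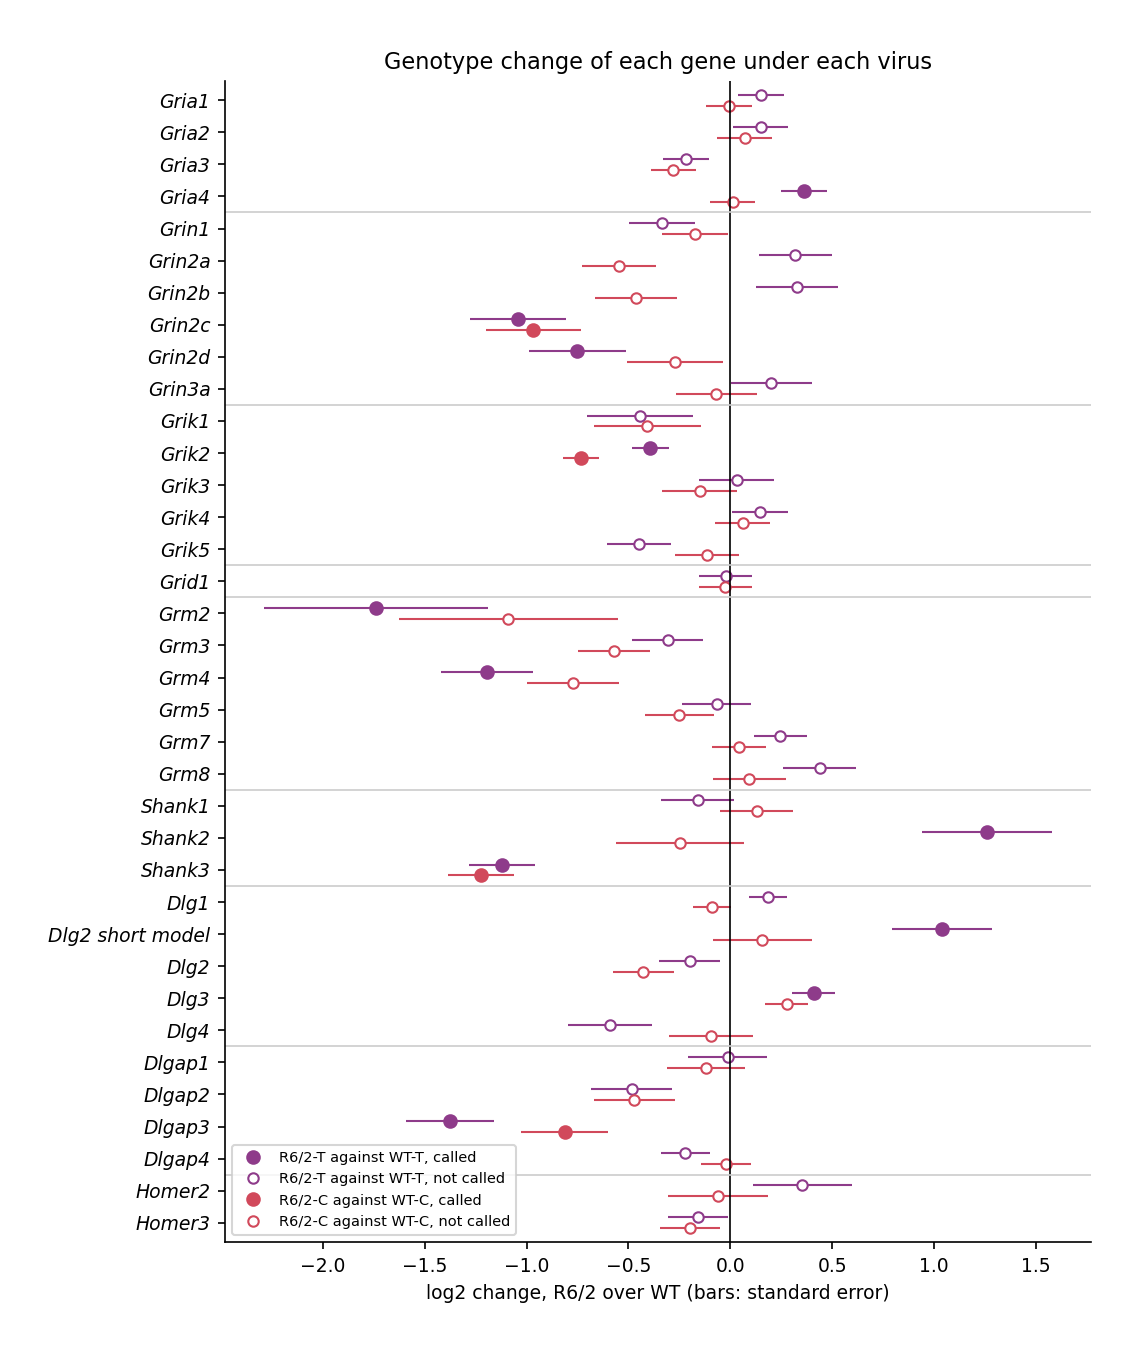
log2 change of R6/2 over WT for each of the 36 rows, with standard errors as bars, under the TRAX virus (upper, purple) and the control virus (lower, red). Filled points passed an adjusted p under 0.05, and the 4 genes filled under both viruses, Shank3, Dlgap3, Grik2 and Grin2c, all lie left of 0.

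Of the 4 AMPA receptor genes, Gria4 passed the test under the TRAX virus and Gria3 over both viruses, both by small changes. Gria1, whose product carries much of the fast excitatory current, had 89.4, 87.5 and 87.1 FPKM in R6/2-T, 72.4, 81.3 and 73.1 FPKM in R6/2-C, 70.1, 77.8 and 85.1 FPKM in WT-T and 71.7, 72.3 and 76.2 FPKM in WT-C. Its groups overlapped between genotypes under the control virus, and edgeR gave an adjusted p of 0.985 for that comparison. In FPKM the R6/2-T libraries lay above all R6/2-C and WT ones. In CPM they did not, as WT-T library 3 was the highest of all 12 at 557 CPM. Gria2, which makes the channel impermeable to calcium, changed by 0.15 (adjusted p = 0.463) and 0.07 (adjusted p = 0.795) under the TRAX and control viruses by edgeR, on the log2 scale with WT subtracted. Gria4 was higher in R6/2-T, with 100.4, 105 and 97.8 CPM, against 70.2, 78.0 and 87.4 CPM in WT-T, a log2 change of 0.36 ± 0.11, adjusted p = 0.0391 by edgeR. These groups did not overlap, but under the control virus R6/2-C had 81.9, 103 and 84.7 CPM against 92.7, 94.1 and 80.8 CPM in WT-C and the change was 0.01 ± 0.11, adjusted p = 0.966. The Gria4 call was lost in 7 of the 12 fits that each left out 1 library (without R6/2-T libraries 1, 2 and 3, WT-T libraries 1 and 2, WT-C libraries 1 and 2, with adjusted p up to 0.114). With GC and length correction it was lost too (0.23, adjusted p = 0.115), while Gria2 (-0.33, adjusted p = 0.0479) and Gria3 (-0.47, adjusted p = 0.00695) were called lower in R6/2-T against WT-T, so that the direction for Gria2 depends on that correction. Gria3 was lower over both viruses, with a lowest, median and highest value of 108, 125 and 136 CPM in the 6 R6/2 libraries, against 128, 147 and 166 CPM in the 6 WT libraries. Its change was -0.25 ± 0.08, adjusted p = 0.0333 by edgeR. The genotypes overlapped in CPM, while in FPKM every R6/2 library lay below every WT library. That call was lost in 9 of the 12 fits that each left out 1 library (without R6/2-T libraries 1, 2 and 3, R6/2-C libraries 1 and 3, WT-T libraries 2 and 3, WT-C libraries 1 and 3, with adjusted p up to 0.0766).

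Among NMDA receptor genes, Grin2c, which encodes the GluN2C subunit, was lower in R6/2 under both viruses. It had 33.3, 32.8 and 31.1 CPM in R6/2-T and 35.1, 26.8 and 25.0 CPM in R6/2-C, against 43.6, 66.4 and 89.9 CPM in WT-T and 64.0, 61.4 and 44.5 CPM in WT-C. Every R6/2 library lay below every WT library. R6/2-T stood at 48.6% of WT-T (log2 change -1.04 ± 0.23, adjusted p = 0.00990) and R6/2-C at 51.2% of WT-C (-0.97 ± 0.23, adjusted p = 0.0292), both by edgeR. The call under the control virus was lost in 5 of the 12 fits that each left out 1 library (without R6/2-T library 3, R6/2-C libraries 2 and 3, WT-C libraries 1 and 2, with adjusted p up to 0.0979), while the one under the TRAX virus held in all 12. With GC and length correction the change under the TRAX virus was -0.59. In mouse brain GluN2C is also made by astrocytes, and the 7 astrocyte markers summed to 529 to 543 FPKM in R6/2-T and 562 to 723 FPKM in R6/2-C, against 656 to 1063 FPKM in WT-T and 833 to 1052 FPKM in WT-C. Of these markers 4 of 7 were called lower in R6/2-C against WT-C, beside 4.22% of all genes. In R6/2-T against WT-T 3 of 7 were called lower, beside 11.1% of all genes. The part of the astrocyte markers in the Grin2c difference was not tested. Grin2d, for the GluN2D subunit, had 9.00, 10.7 and 8.51 CPM in R6/2-T and 7.91, 8.43 and 9.00 CPM in R6/2-C, against 10.2, 19.3 and 17.9 CPM in WT-T and 12.4, 10.7 and 7.44 CPM in WT-C. WT-T library 1 lay within the R6/2-T range, and the change in R6/2-T against WT-T was -0.75 ± 0.24, adjusted p = 0.0412 by edgeR. Over both viruses its change was -0.51 ± 0.17, adjusted p = 0.0379. The call under the TRAX virus was lost in 9 of the 12 fits that each left out 1 library (without R6/2-T libraries 1, 2 and 3, R6/2-C libraries 1, 2 and 3, WT-T libraries 2 and 3, WT-C library 2, with adjusted p up to 0.145), and the one over both viruses was lost in 9 of the 12 fits that each left out 1 library (without R6/2-T libraries 1 and 3, R6/2-C libraries 1, 2 and 3, WT-T libraries 2 and 3, WT-C libraries 1 and 2, with adjusted p up to 0.0914). Both were lost with GC and length correction (-0.28, adjusted p = 0.295, and -0.23, adjusted p = 0.189). An antisense gene model overlaps 9.66% of its exonic bases, and the sources used here do not state whether the counting used strand.

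The other NMDA subunits did not pass the test on StringTie counts by edgeR in any genotype comparison. Grin1, which every NMDA receptor contains, had 84.0, 94.1 and 84.5 FPKM in R6/2-T, 99.5, 88.6 and 83.0 FPKM in R6/2-C, 83.3, 115 and 122 FPKM in WT-T and 96.1, 109 and 91.5 FPKM in WT-C. The genotypes overlapped, with edgeR log2 changes of -0.34 (adjusted p = 0.162) under the TRAX virus and -0.17 (adjusted p = 0.547) under the control virus. Grin2a and Grin2b, the main GluN2 subunit genes of the forebrain, had changes of opposite sign under the TRAX and control viruses. Grin2a was at 0.32 ± 0.18 in R6/2-T against WT-T and -0.55 ± 0.18 in R6/2-C against WT-C, and Grin2b at 0.33 ± 0.20 and -0.46 ± 0.20 in the same order, on the log2 scale with SE. In R6/2-C against WT-C, Grin2a was called lower on recovered fragments (-0.51, adjusted p = 0.0389 by edgeR) and by DESeq2 (-0.56, adjusted p = 0.0352). Grin3a, for an atypical subunit that lowers calcium entry, changed by 0.20 ± 0.20 and -0.07 ± 0.20 (SE). As a share of the summed FPKM of the 4 Grin2 genes, Grin2c took 15.7 to 18.0% in R6/2-T and 17.4 to 31.9% in R6/2-C, against 30.6 to 35.6% in WT-T and 26.8 to 33.6% in WT-C. Grin2b took 46.7 to 49.7% in R6/2-T and 38.02 to 48.0% in R6/2-C, against 34.4 to 41.3% in WT-T and 36.3 to 39.7% in WT-C. Both shares overlapped between the genotypes under the control virus and not under the TRAX virus.

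Grik2, which encodes the kainate receptor subunit GluK2, was the kainate gene that differed. It had 90.7, 86.8 and 83.5 CPM in R6/2-T and 72.8, 85.8 and 74.4 CPM in R6/2-C, against 109, 111 and 122 CPM in WT-T and 138, 126 and 123 CPM in WT-C. All 6 R6/2 libraries lay below all 6 WT libraries, and WT-T also lay below WT-C. R6/2-T stood at 76.2% of WT-T (log2 change -0.39 ± 0.09, adjusted p = 0.0106) and R6/2-C at 60.2% of WT-C (-0.73 ± 0.09, adjusted p = 0.00158) by edgeR, and both calls held in all 12 fits that left out 1 library. The difference between these changes, the interaction, was 0.34 ± 0.13 (adjusted p = 0.371, edgeR). With GC and length correction the change under the TRAX virus was -0.84 and that under the control virus -0.54, so that their order depends on that correction. Grik5, for a high-affinity subunit that needs partners such as GluK2 to form channels, had 46.6, 46.8 and 41.7 FPKM in R6/2-T, 57.7, 46.0 and 47.4 FPKM in R6/2-C, 49.2, 63.2 and 64.2 FPKM in WT-T and 50.3, 59.6 and 50.8 FPKM in WT-C. All R6/2-T libraries lay below the WT-T ones, and its change there missed the threshold (-0.45 ± 0.16, adjusted p = 0.0623, edgeR). On recovered fragments it was called (-0.42, adjusted p = 0.0452 by edgeR). Grik1, Grik3 and Grik4 passed in no genotype comparison, with log2 changes of -0.44 to 0.15 under the TRAX virus and -0.41 to 0.06 under the control virus. The delta receptor gene Grid1 was nearly level, with 14.8, 15.4 and 13.9 FPKM in R6/2-T, 14.6, 15.2 and 13.8 FPKM in R6/2-C, 12.4, 15.9 and 16.5 FPKM in WT-T and 13.7, 15.2 and 14.3 FPKM in WT-C. All groups overlapped, and its log2 changes were -0.02 ± 0.13 and -0.02 ± 0.13 (SE) under the TRAX and control viruses.

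Metabotropic receptor genes of groups II and III, whose products lower cyclic AMP and damp transmitter release, included 3 that were lower in R6/2 over both viruses. Grm4, a group III receptor, had 39.2, 45.5 and 41.7 CPM in R6/2-T and 63.2, 59.7 and 49.6 CPM in R6/2-C, against 63.0, 100.1 and 126 CPM in WT-T and 85.3, 123 and 85.8 CPM in WT-C. Within each virus the genotypes did not overlap. R6/2-T stood at 43.7% of WT-T (log2 change -1.19 ± 0.23, adjusted p = 0.00434) by edgeR, and this call held in all 12 fits that left out 1 library. Under the control virus the change was -0.77 ± 0.22, adjusted p = 0.0552 by edgeR, which missed the threshold, while recovered fragments gave -0.76 with an adjusted p of 0.0354. With GC and length correction the change under the TRAX virus was -0.73. Grm2, a presynaptic group II receptor, was low, with 0.693, 0.821 and 0.773 CPM in R6/2-T and 1.14, 0.494 and 1.54 CPM in R6/2-C, against 0.912, 3.05 and 3.67 CPM in WT-T and 3.55, 1.95 and 1.27 CPM in WT-C. Its values scattered over a wide range in R6/2-C, WT-T and WT-C, and only the TRAX virus groups did not overlap. The change was -1.74 ± 0.55, adjusted p = 0.0418 under the TRAX virus and -1.41 ± 0.38, adjusted p = 0.0174 over both viruses, by edgeR. The call under the TRAX virus was lost in 7 of the 12 fits that each left out 1 library (without R6/2-T libraries 1, 2 and 3, R6/2-C library 1, WT-T libraries 2 and 3, WT-C library 2, with adjusted p up to 0.128), and with GC and length correction (adjusted p = 0.0754). An antisense gene model overlaps 9.6% of its exonic bases. Grm3, a group II receptor found on astrocytes as well as neurons, had a lowest, median and highest value of 61.5, 79.3 and 88.6 CPM in the 6 R6/2 libraries, against 74.4, 108 and 122 CPM in the 6 WT libraries. The genotypes overlapped, and the change over both viruses was -0.44 ± 0.12, adjusted p = 0.0205 by edgeR. Corrected for GC and length it was -0.29 and not called (adjusted p = 0.147). The astrocyte marker sums given with Grin2c moved with it, and their part was not tested. Grm5 had 55.2, 55.4 and 52.8 FPKM in R6/2-T, 40.6, 47.5 and 38.3 FPKM in R6/2-C, 39.2, 57.6 and 69.1 FPKM in WT-T and 48.6, 54.1 and 51.5 FPKM in WT-C. R6/2-C lay below WT-C in every library, without passing the test (-0.25 ± 0.17, adjusted p = 0.396, edgeR). Grm7 and Grm8, the other group III receptors here, passed in no genotype comparison, with log2 changes of 0.25 and 0.44 under the TRAX virus.

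Shank3, a scaffold gene whose loss causes Phelan-McDermid syndrome in humans, had the smallest p of all members in the comparison over both viruses. It had 213, 226 and 212 CPM in R6/2-T and 229, 252 and 189 CPM in R6/2-C, against 373, 462 and 580.4 CPM in WT-T and 555, 561 and 449.7 CPM in WT-C. The highest R6/2 library lay below the lowest WT library. R6/2-T stood at 46.0% of WT-T (log2 change -1.12 ± 0.16, adjusted p = 0.00109) and R6/2-C at 42.8% of WT-C (-1.22 ± 0.16, adjusted p = 0.00226) by edgeR. Over both viruses the change was -1.17 ± 0.12, adjusted p = 6.54e-05, and all 3 calls held in all 12 fits that left out 1 library. With GC and length correction the Shank3 change was -0.81 under the TRAX virus, -1.07 under the control virus and -0.94 over both, still called lower. Neither relative passed as lower. Shank1 had 81.7, 91.5 and 81.1 CPM in R6/2-T and 74.7, 83.3 and 70.1 CPM in R6/2-C, against 64.6, 100.2 and 119 CPM in WT-T and 66.1, 76.8 and 65.4 CPM in WT-C, and the genotypes overlapped under each virus. Its edgeR change was -0.16 ± 0.18, adjusted p = 0.559 under the TRAX virus and 0.13 ± 0.18, adjusted p = 0.694 under the control virus, where GC and length correction gave 0.35 with an adjusted p of 0.0117. Shank2 had 117, 121 and 119 CPM in R6/2-T and 44.1, 121 and 92.5 CPM in R6/2-C, against 32.7, 54.0 and 62.1 CPM in WT-T and 109, 103 and 92.8 CPM in WT-C. WT-T was low and R6/2-C library 1 stood far below its group. Shank2 was called higher in R6/2-T than WT-T (1.26 ± 0.32, adjusted p = 0.0178, edgeR). That call was lost in 3 of the 12 fits that each left out 1 library (without R6/2-T libraries 1 and 3, WT-T library 1, with adjusted p up to 0.0539), and on recovered fragments the change was 0.52 with an adjusted p of 0.0312. In FPKM, Shank3 made up 60.1 to 61.6% of the 3 Shank genes in R6/2-T and 63.4 to 73.7% in R6/2-C, against 79.1 to 82.6% in WT-T and 78.8 to 80.6% in WT-C, with no overlap between the genotypes. The summed FPKM of the 3 genes was 57.2 to 63.7 in R6/2-T and 48.7 to 68.6 in R6/2-C, against 68.7 to 104 in WT-T and 88.3 to 108 in WT-C.

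Dlgap3, which encodes the striatal SAPAP3 that links PSD-95 to Shank proteins, was lower in R6/2 under both viruses. It had 188, 211 and 189 CPM in R6/2-T and 296, 210.3 and 199 CPM in R6/2-C, against 381, 510.0 and 637 CPM in WT-T and 394, 511 and 333 CPM in WT-C. All R6/2 libraries lay below all WT libraries, R6/2-C library 1 being the nearest to them. R6/2-T stood at 38.5% of WT-T (log2 change -1.38 ± 0.22, adjusted p = 0.00158) and R6/2-C at 57.0% of WT-C (-0.81 ± 0.21, adjusted p = 0.0389) by edgeR. The call under the control virus was lost in 8 of the 12 fits that each left out 1 library (without R6/2-T libraries 1, 2 and 3, R6/2-C libraries 2 and 3, WT-T library 2, WT-C libraries 1 and 2, with adjusted p up to 0.125), and the one under the TRAX virus held in all 12. With GC and length correction the change under the TRAX virus was -0.85. Among its relatives, Dlgap2 had a lowest, median and highest value of 50.7, 72.1 and 84.6 CPM in the 6 R6/2 libraries, against 74.6, 99.9 and 116 CPM in the 6 WT libraries. The genotypes overlapped and its change over both viruses was -0.48 ± 0.14, adjusted p = 0.0243 by edgeR. That call was lost in 3 of the 12 fits that each left out 1 library (without R6/2-T library 3, WT-T library 2, WT-C library 1, with adjusted p up to 0.0592), and with GC and length correction (-0.27, adjusted p = 0.126). Dlgap1 and Dlgap4 passed in no genotype comparison, with log2 changes of -0.01 and -0.22 under the TRAX virus and -0.12 and -0.02 under the control virus. Dlgap3 made up 32.7 to 36.4% of the summed Dlgap FPKM in R6/2-T and 36.5 to 46.8% in R6/2-C, against 52.6 to 57.1% in WT-T and 48.3 to 57.3% in WT-C, without overlap between the genotypes. The summed Dlgap FPKM was 131 to 149.8 in R6/2-T and 142 to 164 in R6/2-C, against 187 to 258 in WT-T and 184 to 227 in WT-C.

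**Figure D3:**
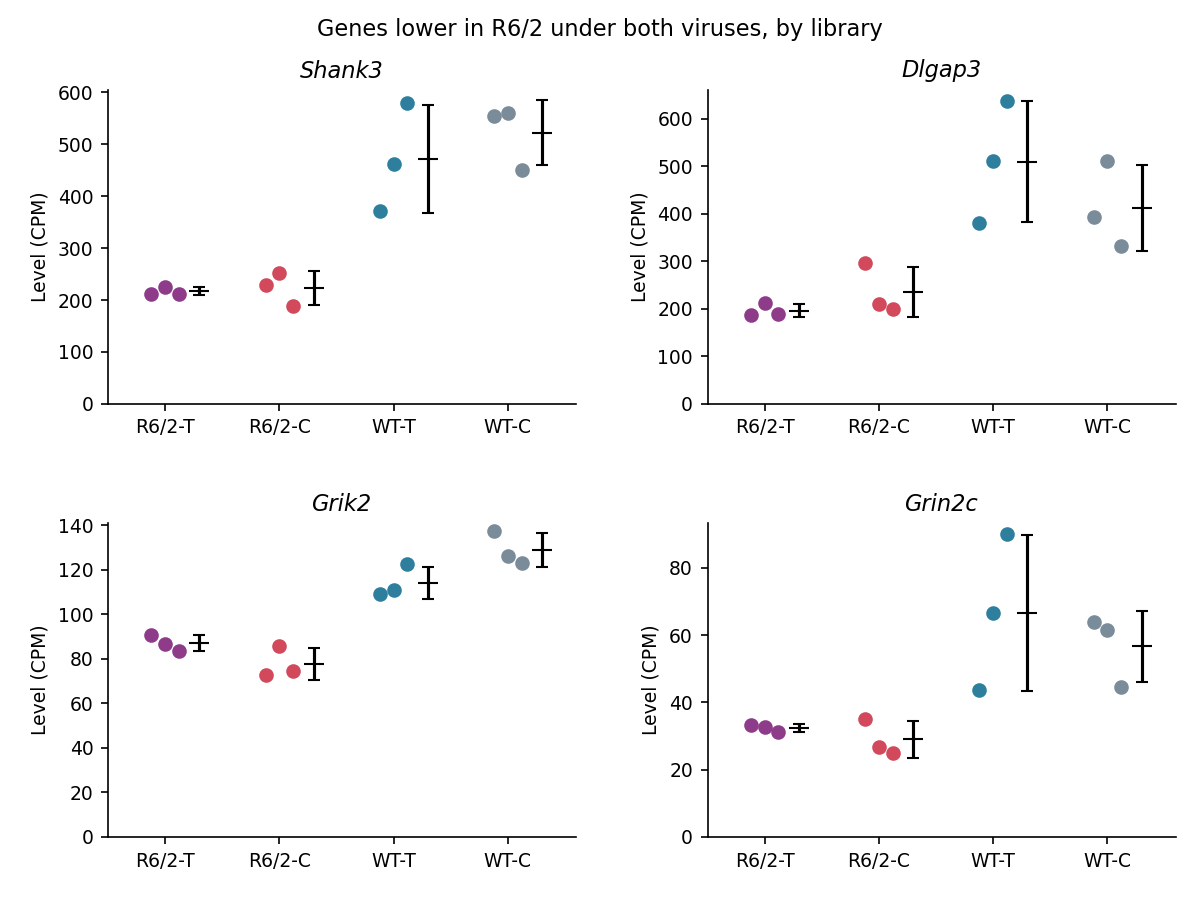
Level in CPM of Shank3, Dlgap3, Grik2 and Grin2c, 1 point per library, with the mean and SD of each group of 3 beside the points as a bar. In each panel all 6 R6/2 points (left) lie below all 6 WT points (right).

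The Dlg genes went in different directions. Dlg3, which encodes SAP102, was higher in R6/2, with 220.2, 208 and 209 CPM in R6/2-T and 185, 219.7 and 179 CPM in R6/2-C, against 145, 153 and 181 CPM in WT-T and 168, 160.2 and 154 CPM in WT-C. Within each virus the genotypes did not overlap. The change was 0.41 ± 0.11, adjusted p = 0.0182 under the TRAX virus, 0.28 ± 0.11, adjusted p = 0.129 under the control virus and 0.34 ± 0.07, adjusted p = 0.00588 over both, by edgeR. The call under the TRAX virus was lost in 4 of the 12 fits that each left out 1 library (without R6/2-T libraries 1 and 3, WT-T libraries 1 and 2, with adjusted p up to 0.0734), and the one over both viruses held in all 12. Dlg2, which encodes PSD-93, was lower over both viruses, with a lowest, median and highest value of 336, 482 and 520.1 CPM in the 6 R6/2 libraries, against 471, 553 and 696 CPM in the 6 WT libraries. The genotypes overlapped, and the change was -0.31 ± 0.11, adjusted p = 0.0440 by edgeR. That call was lost in 9 of the 12 fits that each left out 1 library (without R6/2-T libraries 1, 2 and 3, R6/2-C libraries 1 and 3, WT-T libraries 2 and 3, WT-C libraries 1 and 2, with adjusted p up to 0.0971). The second Dlg2 row is a separate, short gene model (ENSMUSG00000108872, chromosome 7, bases 90476672 to 90522791 of GRCm38) that lies before the main one (ENSMUSG00000052572, 91090706 to 92449247). It had 2.10, 2.49 and 3.55 CPM in R6/2-T and 1.45, 1.22 and 1.34 CPM in R6/2-C, against 1.06, 1.21 and 1.69 CPM in WT-T and 1.21, 1.33 and 1.05 CPM in WT-C. R6/2-T was above the other groups at this low level, and the change from WT-T was 1.04 ± 0.24, adjusted p = 0.0121 by edgeR. This call was lost without R6/2-T library 3 (adjusted p = 0.0667), and the one over both viruses (0.60 ± 0.17, adjusted p = 0.0224) was lost in 3 of the 12 fits that each left out 1 library (without R6/2-T library 3, WT-T library 2, WT-C library 3, with adjusted p up to 0.0717). Dlg4 had 120.5, 126 and 123 FPKM in R6/2-T, 174, 142 and 151 FPKM in R6/2-C, 126, 193 and 216 FPKM in WT-T and 142, 162 and 189 FPKM in WT-C. The genotypes overlapped, and its change over both viruses was -0.34 ± 0.15, adjusted p = 0.0995 by edgeR. On recovered fragments Dlg4 was called lower over both viruses (-0.53, adjusted p = 0.00191) and in R6/2-T against WT-T (-0.67, adjusted p = 0.00515), by edgeR. Dlg1, which encodes SAP97, changed by 0.19 and -0.09 under the TRAX and control viruses and was not called. With GC and length correction, 2 of the 5 Dlg rows were called higher and 2 lower in R6/2-T against WT-T, and 3 were negative. Without it, 2 were called higher, 0 lower and 2 were negative, so direction within this class depends on that correction. The Dlg2 short model had no GC content or length on record and was not corrected. Homer3 had 4.70, 6.56 and 5.99 FPKM in R6/2-T, 5.90, 4.70 and 6.36 FPKM in R6/2-C, 7.001, 6.32 and 4.68 FPKM in WT-T and 6.74, 5.73 and 6.41 FPKM in WT-C. These FPKM values overlapped, and neither Homer3 (-0.16 ± 0.15 and -0.20 ± 0.15 under the TRAX and control viruses) nor Homer2 (0.35 ± 0.24 and -0.06 ± 0.24) passed in a genotype comparison. Homer3 was called higher in R6/2-T against WT-T with GC and length correction (0.41, adjusted p = 0.0420), so its direction depends on that correction. The gene Ddx49 on the opposite strand shares 25.4% of Homer3's exonic bases.

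The promoters of the 4 genes called lower under both viruses differed in base composition. RefSeq's table of promoters on GRCm38.p6 (250 bases before to 50 after a start site) held 36 promoters for 23 of the 35 genes, Shank3, Grin2c, Grik2 and Dlgap3 included. They are printed because these 4 genes carry the genotype result, 5' to 3' on the gene's strand, with each GC box (GGGCGG, or CCGCCC on the other strand, the letters bound by Sp1-type factors) in capitals. They lie at chr15:89499358-89499657 (plus strand), chr11:115267194-115267493 (minus strand), chr10:49788705-49789004 (minus strand) and chr4:127172630-127172929 (plus strand), the last inside the Dlgap3 gene as the deposited tables place it.
Shank3: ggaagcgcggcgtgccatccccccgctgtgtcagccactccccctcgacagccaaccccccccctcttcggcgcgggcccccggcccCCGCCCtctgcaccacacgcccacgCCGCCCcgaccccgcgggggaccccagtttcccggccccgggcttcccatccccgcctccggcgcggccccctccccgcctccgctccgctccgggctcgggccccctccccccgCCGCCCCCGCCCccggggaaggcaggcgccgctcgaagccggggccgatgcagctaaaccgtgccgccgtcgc
Grin2c: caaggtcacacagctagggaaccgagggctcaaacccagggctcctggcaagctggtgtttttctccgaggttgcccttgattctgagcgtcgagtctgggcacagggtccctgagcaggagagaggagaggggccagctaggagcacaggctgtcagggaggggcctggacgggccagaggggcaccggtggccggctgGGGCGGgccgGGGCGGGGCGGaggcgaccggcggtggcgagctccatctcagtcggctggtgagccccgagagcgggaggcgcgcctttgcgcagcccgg
Grik2: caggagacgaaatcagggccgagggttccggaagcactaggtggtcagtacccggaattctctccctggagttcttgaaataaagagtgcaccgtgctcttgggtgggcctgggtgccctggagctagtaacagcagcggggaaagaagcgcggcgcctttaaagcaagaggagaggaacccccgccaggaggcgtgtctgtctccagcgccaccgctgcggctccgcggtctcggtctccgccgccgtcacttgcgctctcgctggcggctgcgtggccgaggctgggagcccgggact
Dlgap3: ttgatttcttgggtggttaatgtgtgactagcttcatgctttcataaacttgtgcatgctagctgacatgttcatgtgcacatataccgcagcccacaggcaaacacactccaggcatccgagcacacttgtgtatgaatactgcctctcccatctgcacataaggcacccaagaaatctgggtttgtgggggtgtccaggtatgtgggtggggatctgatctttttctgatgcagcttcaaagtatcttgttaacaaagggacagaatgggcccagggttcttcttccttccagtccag
The Shank3 promoter holds 4 GC boxes, 81% G or C and 40 CpG pairs, and that of Grin2c 3 boxes, 70% and 22 pairs. Some of these boxes abut or overlap. The Grik2 promoter has 0 boxes, 64.7% G or C and 26 CpG pairs, and the Dlgap3 promoter 0 boxes, 47.7% and 2 pairs. Of the 36 promoters here, 18 held a GC box on either strand, against 35.7% of all 32851 promoters of the table, and the median share of G or C was 60.8% here against 52.7% in all. The cyclic AMP response element TGACGTCA was in 0 of these 36 and in 1.79% of all promoters, and its half-site TGACG, which the full element contains, in 6 of the 36 and 20.8% of all, on either strand. A match of letters is a description, not a binding site.

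The comparisons of R6/2-C with WT-C and of R6/2-T with WT-T share no library. Of the 36 rows, 27 changed in the same direction in both, or 75%, against 71.6% of all genes. The correlation of the log2 changes was 0.73 across these rows and 0.47 across all genes, which are not independent replicates. On recovered fragments 75% of the rows and 74.9% of all genes kept direction. By limma on FPKM it was 63.9% against 72%, with correlations of 0.63 and 0.60. Shank3, Dlgap3, Grik2 and Grin2c were called in both comparisons by edgeR on StringTie counts, and the share of all genes called in both was not computed. Both comparisons take their spread from 1 model of all 12 libraries, so the 2 sets of calls are not independent. The control virus calls of Dlgap3 and Grin2c were each lost in some fits that left out an R6/2-T library. Medium spiny neuron markers moved the same way as these 4 genes, with 7 of 12 called lower in R6/2-C against WT-C, 8 of 12 in R6/2-T against WT-T and 0 higher in either. Their median log2 changes were -0.87 and -1.26 in that order, and none of the 12 was at 0. Of all genes, 4.22% were called lower and 4.87% higher in R6/2-C against WT-C. In R6/2-T against WT-T it was 11.1% lower and 11.5% higher. Markers of several other cells were also lower. In R6/2-C against WT-C, calls were lower for 3 of 6 oligodendrocyte, 3 of 5 oligodendrocyte precursor, 3 of 4 endothelial, 2 of 7 interneuron and 0 of 5 microglia markers, beside 4 of 7 astrocyte markers. In R6/2-T against WT-T they were lower for 5 of 6, 2 of 5, 2 of 4, 3 of 7 and 3 of 5 in that order, and none of these markers was called higher in either. Not all marker sets followed. Of 8 cortical excitatory neuron markers, 0 were called in R6/2-C against WT-C and 1 was lower in R6/2-T against WT-T. Their median log2 changes were 0.25 and -0.93. Of 5 thalamic or subcortical markers, 1 was lower in each comparison and 1 higher in R6/2-T against WT-T. Of 4 choroid plexus markers, 0 were called in either, with medians of 1.75 and 1.23. Oligodendrocyte markers summed to 1267 to 1342 FPKM in R6/2-T and 1303 to 1707 FPKM in R6/2-C, against 1841 to 2591 FPKM in WT-T and 1988 to 2857 FPKM in WT-C. The part of these markers in the differences was not tested. Gria1, Grin1, Grid1 and Dlg1 passed in no genotype comparison by the same test.

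Lowering TRAX left 0 of the 36 rows past the threshold in any comparison by edgeR. In R6/2-T against R6/2-C, 6 rows had an unadjusted p under 0.05, or 16.7% of the rows against 19.2% of all genes, and edgeR called 0.0682% of all genes. DESeq2 called 3 rows (7.42% of all genes) and edgeR on recovered fragments 3 (2.69%), in both cases Grin2a, Grin2b and the Dlg2 short model, all higher in R6/2-T. In WT-T against WT-C, 4 rows had an unadjusted p under 0.05 (11.1% against 6.45% of all genes), DESeq2 and the fragments called 0 (0.495% and 0.0213% of all genes), and edgeR on StringTie counts called 0.00426% of all genes. Over both genotypes, 8 rows had an unadjusted p under 0.05 (22.2% against 14.4% of all genes), DESeq2 called 1 (the Dlg2 short model, 0.58, adjusted p = 0.0458) and the fragments 0 (3.36% and 0.884% of all genes), with 0.217% of all genes called by edgeR. The interaction called 0 rows by edgeR, by DESeq2 and on fragments, with 6 at an unadjusted p under 0.05 in edgeR (16.7% against 11.7% of all genes) and 0.00426%, 0.81% and 0% of all genes called by these 3. The median log2 change of the 36 rows was 0.16 in R6/2-T against R6/2-C (all genes -0.03) and 0.08 in WT-T against WT-C (all genes 0.00), with 26 and 24 rows positive.

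In R6/2-T against R6/2-C the Dlg2 short model had the largest edgeR change (1.02, not called), at 1.22 to 3.55 CPM in R6/2. Grin2a and Grin2b came next and are far more abundant. Grin2a had 127, 113 and 122 CPM in R6/2-T, against 67.8, 93.1 and 61.4 CPM in R6/2-C, and 73.6, 103 and 112 CPM in WT-T, against 122, 93.5 and 108 CPM in WT-C. Grin2b had 458, 403 and 469 CPM in R6/2-T, against 199.7, 344 and 223 CPM in R6/2-C, and 279, 365 and 416 CPM in WT-T, against 399, 319 and 337 CPM in WT-C. For both genes every R6/2-T library lay above every R6/2-C library, of which libraries 1 and 3 were the lowest of all 12, and WT-T and WT-C overlapped. The edgeR change in R6/2 was 0.70 ± 0.18, adjusted p = 0.0965 for Grin2a and 0.79 ± 0.20, adjusted p = 0.0937 for Grin2b. Correcting for GC and length gave changes of 0.21 (adjusted p = 0.387) and 0.25 (adjusted p = 0.351). Without R6/2-C library 2, the highest of its group, 2 of the 36 rows passed the threshold. In WT the changes were -0.17 ± 0.18 for Grin2a and 0.01 ± 0.20 for Grin2b. The interaction was 0.87 ± 0.26 for Grin2a (unadjusted p = 0.00596, adjusted p = 0.353, edgeR) and 0.79 ± 0.28 for Grin2b (adjusted p = 0.371), so a difference between the genotypes was not shown. The same correction gave interactions of 0.35 (adjusted p = 0.783) and 0.23 (adjusted p = 0.827). The authors' deposited table of 626 genes, described as neuron-enriched, for R6/2-T against R6/2-C holds 4 of these genes. In the authors' deposited table the log2 ratio of mean FPKM was 0.92 for Grin2a (q = 0.0047), 0.76 for Grin2b (q = 0.0073), -0.50 for Grm4 (q = 0.0362) and -0.34 for Dlg4 (q = 0.1506). Here Grm4 and Dlg4 changed by -0.45 ± 0.22 and -0.32 ± 0.21 on the log2 scale of the counts and were not called by edgeR (adjusted p = 0.299 and 0.436). The 4 choroid plexus markers summed to 639 to 1165 FPKM in R6/2-T and 78.3 to 1208 FPKM in R6/2-C, and medium spiny neuron markers had a median log2 change of -0.34 with 0 of 12 called on StringTie counts, 3 called lower on recovered fragments and 7 at an unadjusted p under 0.05 in edgeR. Their part was not tested.

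**Figure D4:**
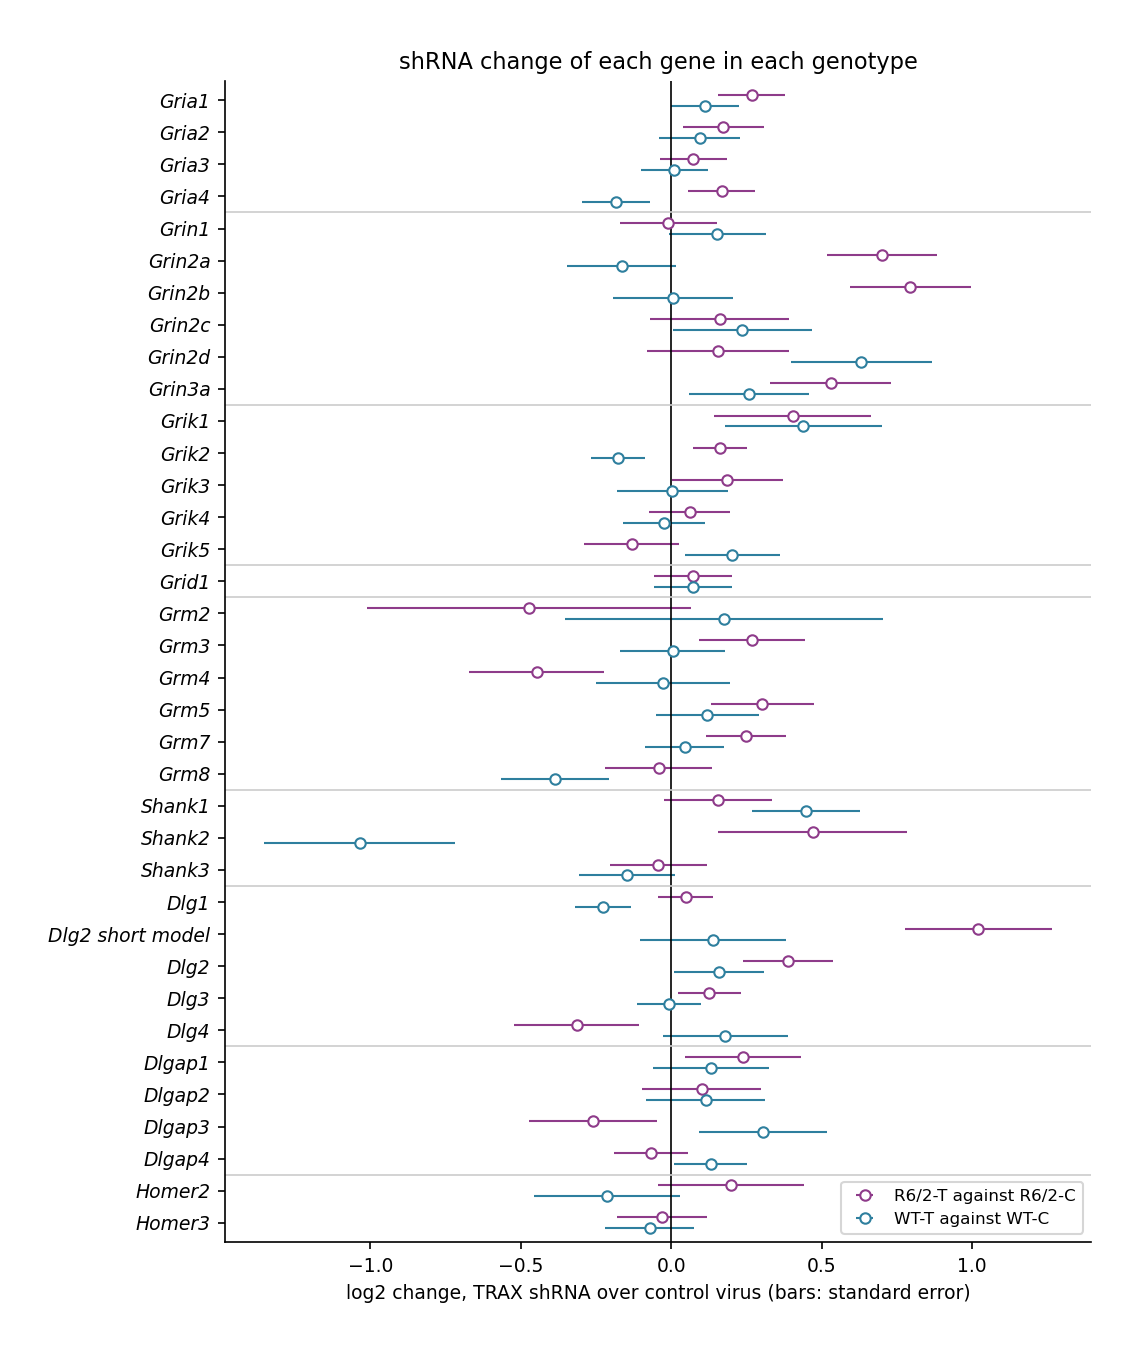
log2 change of TRAX shRNA over control virus for each of the 36 rows, with standard errors as bars, in R6/2 (upper, purple) and WT (lower, blue). All points are open because none passed an adjusted p under 0.05, and Grin2a, Grin2b and the Dlg2 short model lie farthest right in R6/2.

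The source of the counts mattered for the values of Shank2 and Dlg4, though Shank2 was called higher in R6/2-T against WT-T from both sources. The test used StringTie counts, which are estimated from assembled transcript coverage, and the alternative used fragments recovered from a second set of deposited columns. Shank2 had 123, 129 and 126 CPM of fragments in R6/2-T and 108, 125 and 101 in R6/2-C, against 62.7, 93.8 and 108 in WT-T and 113, 120.1 and 96.0 in WT-C. On this scale R6/2-C library 1 no longer stood apart and WT-T overlapped WT-C, so that the change in WT-T against WT-C was -0.32, against -1.04 on StringTie counts. Dlg4 had 432, 438 and 438 CPM of fragments in R6/2-T and 617, 492 and 512 in R6/2-C, against 557, 697 and 833 in WT-T and 669, 814 and 635 in WT-C. Grin2a and Grin2b had similar values from both sources, with fragment-based changes of 0.65 and 0.82 in R6/2-T against R6/2-C. Both genes passed the threshold there on fragments and not on StringTie counts by edgeR.

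**Figure D5:**
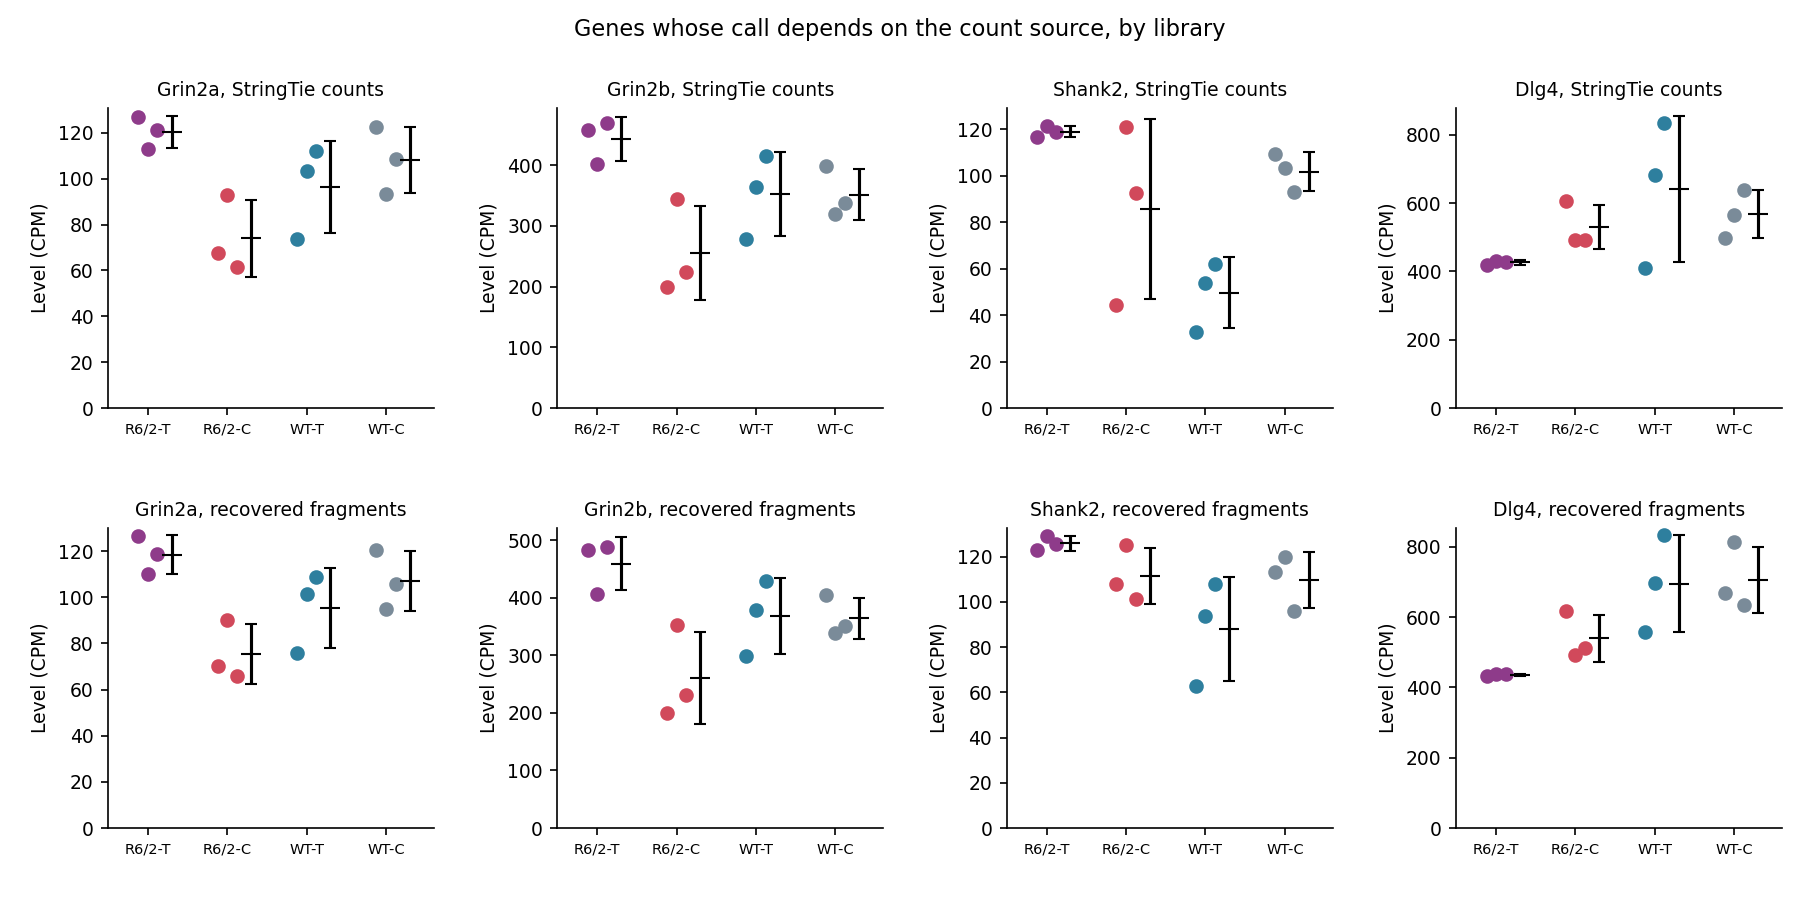
Level in CPM of Grin2a, Grin2b, Shank2 and Dlg4 from StringTie counts (upper row) and recovered fragments (lower row), 1 point per library, with the mean and SD of each group of 3 as a bar. Shank2 in R6/2-C library 1 and in WT-T is lower from StringTie counts than from fragments, and Grin2a and Grin2b keep the same order of groups in both rows.

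Other genes of the glutamate synapse, 49 in a list of which 48 were tested, also held more decreases than increases. In R6/2-C against WT-C, 9 were called lower and 1 higher, and in R6/2-T against WT-T 12 lower and 4 higher, with median log2 changes of -0.31 and -0.27. Of all genes, 4.22% were called lower and 4.87% higher in R6/2-C against WT-C, and 11.1% lower and 11.5% higher in R6/2-T against WT-T. On recovered fragments the list had 16 lower and 2 higher in R6/2-C against WT-C and 16 lower and 6 higher in R6/2-T against WT-T. Auxiliary receptor subunits had 3 of 14 lower under the control virus, 5 of 14 under the TRAX virus and 0 higher. Gsg1l, one of them, changed by -1.79 ± 0.14, adjusted p = 5.54e-05 under the TRAX virus and -1.45 ± 0.14, adjusted p = 0.000488 under the control virus by edgeR. Cacng4, of the stargazin family of trafficking subunits, changed by -1.13 ± 0.11, adjusted p = 0.000164 and -0.84 ± 0.11, adjusted p = 0.00194 by edgeR. Homer1, the main Homer scaffold of the forebrain, changed by -0.82 ± 0.16, adjusted p = 0.00548 and -0.90 ± 0.16, adjusted p = 0.00966, and Baiap2, a partner of PSD-95 and Shank that shapes actin, by -1.19 ± 0.14, adjusted p = 0.000414 and -0.74 ± 0.14, adjusted p = 0.0106, by edgeR. Nptx2, a secreted pentraxin that clusters AMPA receptors, changed by -2.54 ± 0.18, adjusted p = 4e-05 and -1.53 ± 0.18, adjusted p = 0.00119. It was also the 1 gene of the list lower in R6/2-T against R6/2-C (-1.28 ± 0.18, adjusted p = 0.0401, edgeR). Of the genes called higher, Lrrtm4, a synaptic adhesion gene, changed by 1.52 ± 0.28, adjusted p = 0.00975 under the control virus by edgeR. On recovered fragments the Lrrtm4 change was 0.63.

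Among 15092 genes with a mean of at least 1 FPKM, the 5 whose log2 levels followed Shank3 most closely over the 12 libraries were Papln (r = 0.986), Bcr (0.983), Cntnap1 (0.982), Rgs11 (0.980) and Unc13a (0.977). Of the other members, Grm4 (0.930), Grik2 (0.921), Dlgap3 (0.917) and Grin2c (0.910) came nearest and Dlg3 was the most opposed (-0.793). These correlations span both genotypes and describe the same genotype split.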

How the data were processed

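Total RNA of mouse striatum was made into libraries with a TruSeq Stranded Total RNA Gold kit and sequenced, per the labels' protocols. Either TRIzol or miRNeasy served for extraction, and which library had which is not stated. The submitters' processing notes name bcl2fastq 2.20, HISAT2 and GRCm38. StringTie estimated counts per gene were deposited by the authors, with totals of 131783370 to 229332386 per library and a median of 4.07 counts per fragment. A second deposited set of columns, headed Cuffdiff, holds a signal: fragment counts scaled to a common library size. Dividing it by its step gave fragments, 96.1% to 97.1% of values being whole within 0.05. FPKM values were deposited by the authors without naming the tool. A deposited table of the authors' comparison gives log2 ratios, p-values and q-values whose test is not stated. The deposited tables hold 22 further per-sample columns, which were not used.

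Counts were tested with edgeR 4.0.16 (R 4.3.3; TMM, filterByExpr, robust quasi-likelihood F test) in 1 model of 4 group means over 12 libraries, with Benjamini-Hochberg adjustment over 23453 genes. A gene was called at an adjusted p under 0.05. All 36 rows passed the filter. CPM are StringTie counts scaled to the library total as adjusted by TMM, and they stand beside the tests, while FPKM compares levels between genes. Because StringTie counts exceed fragments, the counting part of their error is understated, though the test also estimates the spread between libraries. On fragments 17.4% of the genes tested were called in R6/2-C against WT-C, against 9.09% on StringTie counts. Fragments served as the main alternative. Others were DESeq2 1.42.0, limma 3.58.1 on log2(FPKM + 0.1), and correction for GC content and transcript length with mgcv 1.9.3. The code was tested on simulated data. Library values are given for each member called and for the highest of each class, and of the other synapse genes up to 6 called per comparison were to be named by smallest p. Members and lists were chosen with earlier results of these data known, and the lists give no independent support. One gene of these lists is not reported here.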

Additional observations from a re-analysis of the deposited data

How the results depend on the processing

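The number of rows called in R6/2-C against WT-C, 4 of 36, was 8 on recovered fragments. It was 7 with DESeq2, with a filter of at least 1 CPM in every library, with GC and length correction (with and without the replicate block) and with limma on FPKM at pseudocounts of 0.1, 0.01 or 1. It was 2 with limma without a filter, with only the 2 groups compared or with the replicate block. Limma without a filter gave 6 in R6/2-T against WT-T, in place of 11, and 7 over both viruses, in place of 13. In R6/2-T against R6/2-C, fragments and DESeq2 gave 3 in place of 0, and over both genotypes DESeq2 gave 1 in place of 0. Leaving out 1 library at a time gave 2 to 7 in R6/2-C against WT-C (2 without R6/2-T 3, R6/2-C 3, WT-C 1 or WT-C 2, and 7 without WT-T 1). It gave 5 to 14 in R6/2-T against WT-T (5 without R6/2-T 3, 6 without R6/2-T 1, 7 without WT-T 2) and 8 to 17 over both viruses (8 without R6/2-T 3 or WT-T 2). For the shRNA it gave 0 to 2 in R6/2-T against R6/2-C (2 without R6/2-C 2) and 0 to 1 over both genotypes (1 without R6/2-C 2 or WT-T 1). WT-T against WT-C and the interaction stayed at 0 in every alternative run. A tally was made of 31 single results. They were the 4, 11 and 13 genotype calls and the R6/2-T against R6/2-C changes of Grin2a, Grin2b and the Dlg2 short model. Over 760 alternative values, 626 kept direction and side of the threshold, 126 lost the call, 8 gained it and 0 reversed. Only the last 3 changes could gain a call. The Dlg2 short model had no GC content or length on record, so GC and length correction did not adjust its counts. Its values under that correction are in the tally all the same. Genotype results not called, such as Gria2 and Homer3, whose sign changed with GC and length correction, were left out, so the tally does not cover them. The cause of these shifts was not tested.

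Replicate numbers did not pair the libraries: deviations of same-numbered libraries correlated by -0.21 to 0.20. With the replicate as a block, 2, 8 and 10 rows were called in the 3 genotype comparisons and 0 in the others. With 3 libraries a group, the change of a single gene is measured with the standard errors printed beside it.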
